A study of Mus musculus with 8 samples.

Results

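The genes described are those of the LIF, STAT3 and SOCS pathway: *Lifr*, *Il6st*, *Jak1*, *Jak2*, *Stat3*, *Socs1*, *Socs2*, *Socs3*, *Cish* and *Pim1*. They were found in the table of read counts by their Entrez identifiers, and 9 of these 10 genes had a row among the 21950 genes of the table. *Socs2* was not analysed here. The 10 genes were selected on their measured fold changes between these same cell types. Their levels and fold changes are therefore given as a description, and nothing is read from whether they passed a test.

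The study made oocytes in culture from mouse pluripotent stem cells, and one of its comparisons set germ cell precursors made in culture beside those of the embryo. The d6PGCLCs, germ cell-like cells, came from 1 female iPSC line made from adult tail tip fibroblasts, which carries Blimp1-Venus and Stella-ECFP reporters (BVSC). They were collected at day 8 of culture, which is 6 days after the epiblast-like state, and sorted for both reporters. The E12.5 PGCs were sorted from gonads of female C57BL/6J fetuses for SSEA1 and integrin β3. Each group held 4 pools from separate experiments. Per the study's methods, the PGCLC medium contained LIF at plating and again in the last medium before collection, together with SCF and EGF, with BMP4 at plating only. Added LIF, stage, strain, sort and origin differ together between the groups, and cannot be told apart.

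LIF binds LIFR, which pairs with gp130, the product of *Il6st* and the shared signalling chain of the IL6 family. The JAK kinases bound to these receptors phosphorylate STAT3, which enters the nucleus and turns on genes such as *Socs3* and *Pim1*. SOCS proteins and CISH bind activated receptors or JAKs and shut the signal off. In mouse pluripotent stem cells this pathway sustains self-renewal, and LIF is a survival factor for PGCs in culture. mRNA levels do not show whether STAT3 was phosphorylated.

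Between 7991437 and 12024841 reads were counted per library. Levels are in CPM, which are counts relative to the TMM-scaled library total, and RPKM, which is CPM per kilobase of exonic length, was used where genes were compared with each other. As limit of detection 3 counts were used, or 0.249 to 0.375 CPM depending on the library, which covers counting error only. All 12 germ cell markers were detected in all 8 libraries, although *Ddx4*, *Dazl* and *Mael*, genes of later germ cells, were low in d6PGCLCs. *Fut4*, another of these markers, was at 4 to 11 counts in d6PGCLCs and 62 to 149 counts in E12.5 PGCs. Its enzyme can make the SSEA1 epitope used to sort the E12.5 PGCs, but its part in the epitope of these cells was not tested. Markers of gonadal somatic cells summed to 2.35 to 5.58 CPM in E12.5 PGCs and 0.498 to 1.02 CPM in d6PGCLCs over 9 genes. Markers of blood and endothelium summed to 15.5 to 27.7 and 37.4 to 50.4 CPM over 8 genes, with *Ptprc* and *Spi1* at 1 count or fewer in each library. Of the 8, 3 passed as higher in d6PGCLCs, which were *Csf1r*, *Cd68* (mean of 12.6 against 2.25 CPM, adjusted p = 1.67e-07, edgeR's quasi-likelihood test) and *Cdh5* (11.0 against 4.18 CPM, adjusted p = 0.000193). The macrophage gene *Csf1r* was at 0 counts in the E12.5 PGC libraries and at up to 24 counts in d6PGCLCs, and the part of such cells in the results was not tested. The library of E12.5 PGC replicate 4 held 99 counts of Y-linked genes, while the other 7 held 0. That of E12.5 PGC replicate 2 was highest of its group for 16 of 17 genes that respond to tissue dissociation, which summed to 2077 CPM against 1008 to 1133 CPM in the other 3. In d6PGCLCs, the same genes summed to 1000.3 to 1085 CPM, but the members went both ways. Of the 17, 4 passed as higher in d6PGCLCs (*Hspb1* at a mean of 70.3 against 8.73 CPM), 8 as lower (*Jun* at 16.0 against 66.3 CPM) and 5 did not pass. Because these are bulk samples, fewer cells with a transcript and less transcript per cell cannot be told apart.

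Of the 9 members, *Socs3*, the feedback inhibitor of gp130 signalling, differed most between the cell types and was 29.3-fold higher in d6PGCLCs. *Stat3*, *Pim1*, *Cish* and *Il6st* were also higher there, by 2.76-, 2.35-, 1.65- and 1.31-fold. *Jak1*, *Jak2* and *Socs1* were lower, at 0.69, 0.693 and 0.455 of their E12.5 PGC level. The receptor gene *Lifr* was 1.30-fold higher by the fit, with overlapping groups. In the fit over all genes, 5 members passed a Benjamini-Hochberg adjusted p of 0.05 as higher and 3 as lower, where 16.1% and 15.4% of all 21950 genes did so. Among the 11434 genes averaging 10 or more counts, the shares were 28.1% and 25.6%. All 9 members reached that mean. With the study's threshold of a log2 fold change of 2 added, *Socs3* was the 1 member that passed, against 3.24% of all genes passing as higher and 3.37% as lower. Of 17 alternatives, 4 let *Lifr* pass, and *Socs1* did not pass without d6PGCLC replicate 4 or without E12.5 PGC replicate 2. Since the members were chosen with this comparison in view, nothing is read from these counts. The groups did not overlap for *Il6st*, *Stat3*, *Socs3*, *Cish* and *Pim1*, which were higher, and for *Jak2* and *Socs1*, which were lower. Such separation was found for 27.1% of the genes averaging 10 or more counts as higher and 24.1% as lower.

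**Figure D1:**
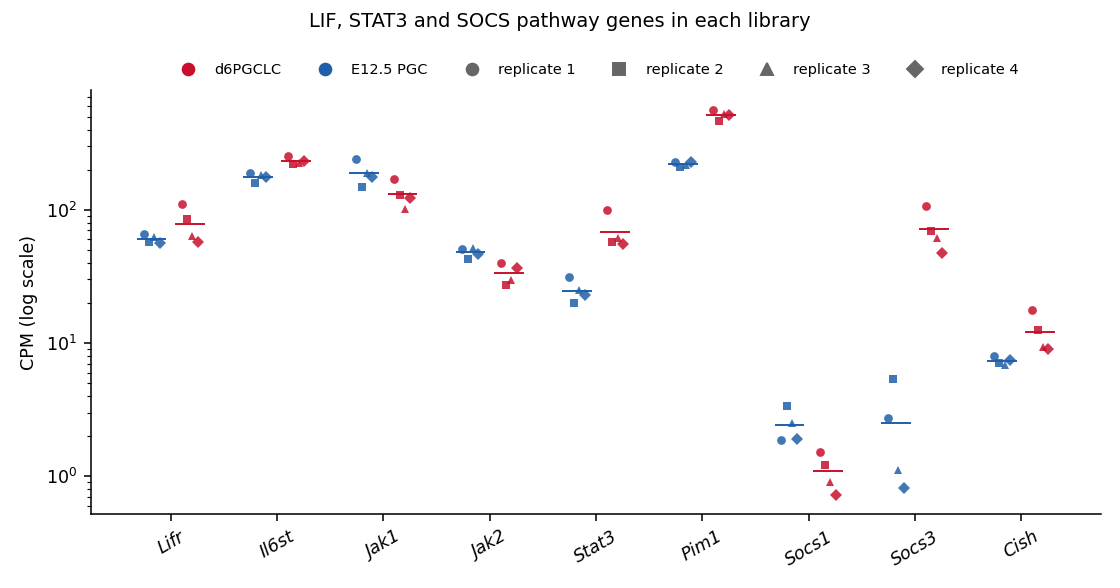
CPM (vertical, log scale) of the 9 genes (horizontal) in the 4 E12.5 PGC and the 4 d6PGCLC libraries, with marker shape for the replicate and a line at the group mean. *Socs3* lies at 0.812 to 5.37 CPM in E12.5 PGCs and at 47.4 to 107.5 CPM in d6PGCLCs, while the groups overlap for *Lifr* and *Jak1*.

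The receptor chains differed little. *Lifr* (Entrez 16880, chr15:7090610-7197489, GRCm38), the ligand-binding chain, was at 65.7, 57.4, 62.6 and 55.9 CPM in E12.5 PGC replicates 1 to 4 and at 109.6, 84.7, 63.1 and 57.2 CPM in d6PGCLC replicates 1 to 4. The first 2 d6PGCLC libraries were above all E12.5 PGC libraries and the other 2 were within their range. The log2 fold change was 0.38 (SE 0.15), and 0.18 without d6PGCLC replicate 1. *Il6st* (Entrez 16195, chr13:112464070-112506860), which encodes gp130, was at 187.8, 160.2, 182.7 and 177.0 CPM in E12.5 PGCs and at 252.5, 219.3, 225.4 and 231.0 CPM in d6PGCLCs. All d6PGCLC libraries were above all E12.5 PGC libraries, by a small margin, with a log2 fold change of 0.39 (SE 0.09). The RPKM of *Lifr* divided by that of *Il6st* was 0.194 ± 0.050 (SD, n = 4) in d6PGCLCs and 0.196 ± 0.011 in E12.5 PGCs. Thus the mean balance of the 2 chains differed by less than the spread between replicates, and the d6PGCLC libraries spread more widely, from 0.142 to 0.249.

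Both JAK genes were lower in d6PGCLCs. *Jak1* (Entrez 16451, chr4:101151974-101265282), the kinase most used by gp130, was at 241.8, 149.5, 189.1 and 176.1 CPM in E12.5 PGCs and at 169.6, 129.1, 100.8 and 122.9 CPM in d6PGCLCs. d6PGCLC replicate 1 lay above E12.5 PGC replicate 2, so that the groups overlapped in these libraries. *Jak2* (Entrez 16452, chr19:29251803-29313095), which also binds gp130 and serves many other cytokine receptors, was at 51.2, 42.9, 51.8 and 46.5 CPM against 39.8, 27.2, 29.9 and 36.7 CPM. Here the highest d6PGCLC library stayed below the lowest E12.5 PGC library. The log2 fold changes were -0.54 (SE 0.14) for *Jak1* and -0.53 (SE 0.13) for *Jak2*. The RPKM of *Jak1* divided by that of *Jak2* was 3.70 ± 0.65 in d6PGCLCs and 3.68 ± 0.52 in E12.5 PGCs (SD, n = 4). The kinase genes hence stood in nearly the same proportion in both cell types.

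*Stat3* (Entrez 20848, chr11:100886806-100939594), the main transcription factor downstream of gp130, was at 31.4, 20.0, 24.8 and 22.7 CPM in E12.5 PGCs. In d6PGCLCs it was at 99.8, 57.0, 61.2 and 55.4 CPM. The groups were far apart, and d6PGCLC replicate 1 stood above the other 3 libraries of its group. The log2 fold change was 1.47 (SE 0.17), and between 1.23 and 1.60 when each library was left out in turn.

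The SOCS family did not move as a group. *Socs3* (Entrez 12702, chr11:117966079-117970336), whose protein binds gp130 and blocks the JAKs, had 22, 51, 12 and 9 counts in the E12.5 PGC libraries and 842, 681, 744 and 391 counts in the d6PGCLC libraries. In CPM, it was at 2.74, 5.37, 1.11 and 0.812 in E12.5 PGCs and at 107.5, 69.3, 61.7 and 47.4 in d6PGCLCs. The lowest d6PGCLC library stood several-fold above the highest E12.5 PGC library, and relative to their mean the E12.5 PGC libraries differed among themselves by more than those of d6PGCLCs. The log2 fold change was 4.87 (SE 0.36). E12.5 PGC replicate 2, the library with the high dissociation genes, had the highest *Socs3* of its group, and without it the log2 fold change was 5.60. The part of dissociation in the *Socs3* level of that library was not tested.

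*Socs1* (Entrez 12703, chr16:10783808-10785536), a direct inhibitor of the JAKs known for restraining interferon signals, was near the limit of counting in both cell types. It had 15, 32, 27 and 21 counts in the E12.5 PGC libraries, or 1.87, 3.37, 2.49 and 1.90 CPM. In d6PGCLCs it had 12, 12, 11 and 6 counts, or 1.53, 1.22, 0.913 and 0.727 CPM. All d6PGCLC libraries were lower than all E12.5 PGC libraries, with a log2 fold change of -1.14 (SE 0.36), and -0.93 without E12.5 PGC replicate 2, which was the highest. Hence *Socs3* and *Socs1* differed between the cell types in opposite directions. The RPKM of *Socs3* divided by that of *Socs1* was 32.9 ± 2.9 in d6PGCLCs and 0.498 ± 0.321 in E12.5 PGCs (SD, n = 4).

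*Cish* (Entrez 12700, chr9:107296659-107302784), a SOCS family inhibitor best known as a STAT5 target, was at 7.98, 7.05, 6.82 and 7.40 CPM in E12.5 PGCs and at 17.6, 12.4, 9.38 and 9.09 CPM in d6PGCLCs. The groups did not overlap, but d6PGCLC replicates 3 and 4 came close to the E12.5 PGC libraries. The log2 fold change was 0.72 (SE 0.21), and 0.50 without d6PGCLC replicate 1. Within d6PGCLCs, *Cish* and *Socs3* varied together: the RPKM of *Socs3* divided by that of *Cish* was 4.96, 4.54, 5.36 and 4.24 in replicates 1 to 4. In E12.5 PGCs, the same ratio was 0.280, 0.619, 0.132 and 0.0893.

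*Pim1* (Entrez 18712, chr17:29490785-29496111), which encodes a survival kinase and is a STAT3 and STAT5 target, was at 226.9, 210.4, 216.7 and 228.5 CPM in E12.5 PGCs. In d6PGCLCs it was at 564.9, 463.1, 524.6 and 518.9 CPM. The libraries of each group lay close together, and the groups were well separated. The log2 fold change was 1.23 (SE 0.09), between 1.19 and 1.28 when each library was left out, and 1.11 when the trend of each library with exonic length was removed.

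Per exonic length, the members took a different order in each cell type. In E12.5 PGCs, the mean RPKM fell from *Pim1* (110.7) over *Jak1* (30.03), *Il6st* (28.9), *Jak2* (8.11), *Lifr* (5.66), *Stat3* (4.55), *Cish* (3.21) and *Socs1* (1.70) to *Socs3* (0.894). The neighbours *Jak1* and *Il6st*, *Lifr* and *Stat3*, and *Socs1* and *Socs3* overlapped over the 4 libraries, and the other neighbours did not. In d6PGCLCs, the order was *Pim1* (259.9), *Il6st* (37.8), *Socs3* (25.5), *Jak1* (20.7), *Stat3* (12.6), *Lifr* (7.37), *Jak2* (5.63), *Cish* (5.32) and *Socs1* (0.774). There, *Pim1* stood above and *Socs1* below all others, and each neighbouring pair from *Il6st* to *Cish* overlapped. The inhibitor gene *Socs3* therefore moved from the last place in E12.5 PGCs to the third in d6PGCLCs, above both JAK genes and *Stat3* in the mean. Among the genes with a count in any library, its mean RPKM was above that of 38.5% in E12.5 PGCs and of 79.2% in d6PGCLCs. *Pim1* was above 96.4% and 99.1%. The RPKM use the length of 1 isoform per gene, chosen at random, and the reads counted on it, so that the order between genes depends on that choice.

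**Figure D2:**
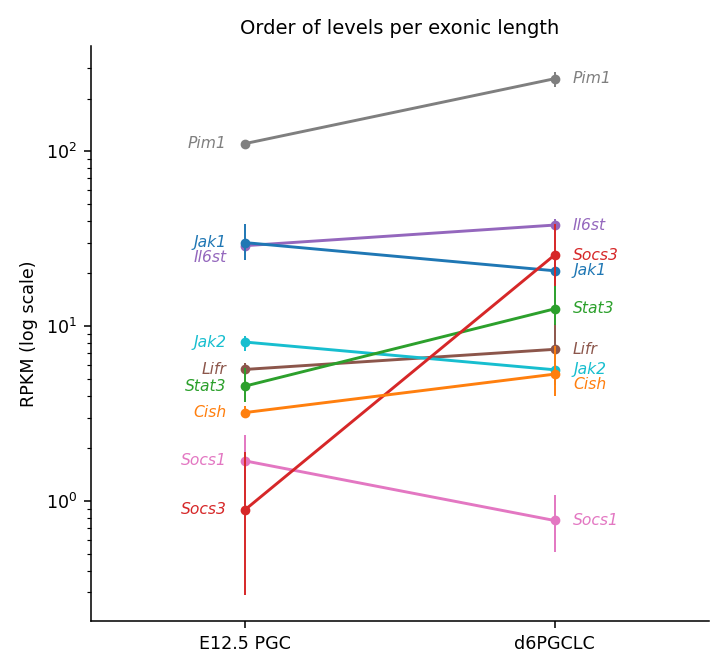
Mean RPKM (vertical, log scale) of each gene in E12.5 PGCs (left) and d6PGCLCs (right), joined by a line, with vertical bars from the lowest to the highest of 4 libraries. *Socs3* rises from 0.894 to 25.5 RPKM and crosses the lines of *Socs1*, *Cish*, *Stat3*, *Lifr*, *Jak2* and *Jak1*.

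The d6PGCLC libraries differed among themselves across the whole pathway. Replicate 1 was the highest of its group for 9 of 9 members, and replicate 4 was the lowest for 5. Relative to the group mean, replicate 1 was at 1.503 for *Socs3*, 1.46 for *Stat3*, 1.452 for *Cish*, and 1.39 for both *Lifr* and *Socs1*, but at 1.09 for *Il6st* and *Pim1*. Replicate 4 was at 0.663 for *Socs3* and 0.662 for *Socs1*. Over all genes averaging 10 or more counts, replicate 1 was the highest for 33.0%. This share moved with exonic length, from 19.7% of genes up to 2000 bp to 52.7% of genes over 5000 bp. The trend was not particular to d6PGCLCs. E12.5 PGC replicate 1 was the highest of its group for 16.9% and 58.0% of these genes, and for 5 of 9 members. Of the members, *Lifr*, *Il6st*, *Jak1*, *Jak2* and *Stat3* are over 5000 bp, and *Socs1* and *Pim1* are under 2000 bp. The part of length in the high values of replicate 1 of either group was not tested gene by gene. When the trend with length was removed in every library, the log2 fold change of *Lifr* was 0.61 in place of 0.38, and *Socs3* and *Stat3* stayed within 4.76 to 4.90 and 1.431 to 1.497 over this and the other changes of processing.

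**Figure D3:**
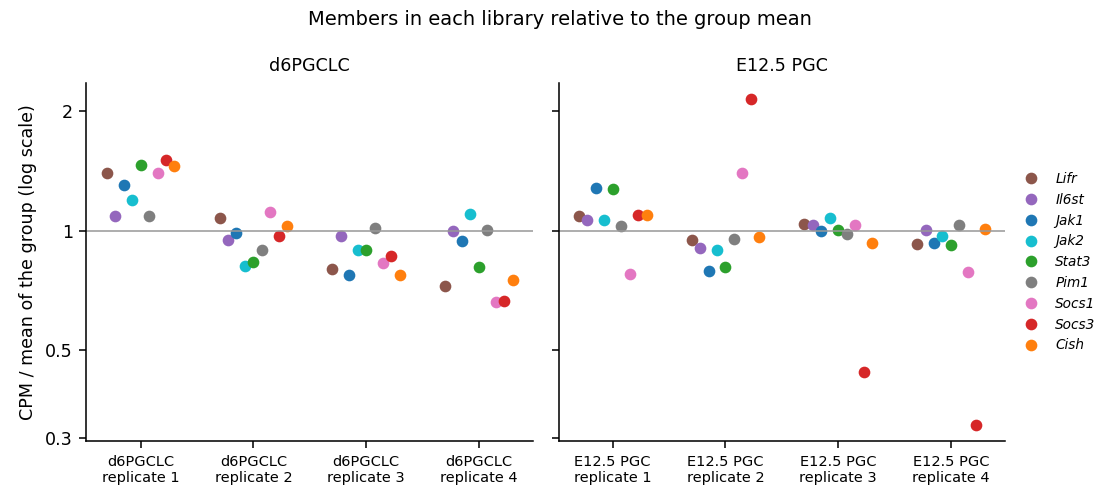
CPM divided by the group mean (vertical, log scale) for the 9 genes in each library of d6PGCLCs (left) and E12.5 PGCs (right), 1 point per gene. All points of d6PGCLC replicate 1 lie above 1, and *Socs3* spreads widely among the E12.5 PGC libraries, from 0.324 to 2.14.

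Some members carry the motif bound by STAT dimers in their promoters, which is shown for *Cish* and *Socs3*, the members that hold it. The motif TTCNNNGAA, which reads the same on both strands, was searched from 250 bases before to 50 bases after each start site in RefSeq promoters (GRCm38.p6). The stricter form TTCCNGGAA is part of it. Of the 9 members with a window, *Cish* and *Socs3* held TTCNNNGAA, which was found in 9.55% of all 27025 genes and 8.30% of all windows. *Cish* held the stricter form, found in 1.35% of genes. The windows of *Lifr*, *Il6st*, *Jak1*, *Jak2*, *Stat3*, *Socs1* and *Pim1* held no match, which says only that these letters were not in them. Within d6PGCLCs, the RPKM ratio of *Socs3* to *Socs1*, which held no match, was 28.7 to 35.5, and that to *Cish* was 4.24 to 5.36, so both ratios had a similar relative spread. Of 21 listed target genes, 16 had a window and *Bcl6*, *Sbno2*, *Icam1* and *Zfp36* held the motif. *Bcl6*, *Sbno2* and *Icam1* also held the stricter form, and *Zfp36* did not. *Sbno2* and *Zfp36* rose, whereas *Bcl6* (adjusted p = 0.215, edgeR's quasi-likelihood test) and *Icam1* (adjusted p = 0.116) did not pass. The 30 bases around the matches are printed for both members and for *Sbno2* and *Zfp36*, but not for *Bcl6* and *Icam1*. They run 5′ to 3′ on the gene's strand, with matches in capitals.
Cish, chr9:107296654-107296683, plus strand: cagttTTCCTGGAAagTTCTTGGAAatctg
Socs3, chr11:117969501-117969530, minus strand: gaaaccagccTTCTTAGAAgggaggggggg
Sbno2, chr10:80101192-80101221, minus strand: ccggctctgcTTCCCGGAAtgcctgtgagt
Zfp36, chr7:28379226-28379255, minus strand: acagcctgacTTCTGCGAAccgacagtcgg
In *Cish* the matches began at bases 1 and 12, counted from the start site as base 1, and thus lay side by side at the start of the transcript. In *Socs3* the match began 154 bases before a start at position 117969366, which lies inside the gene as annotated. Of 3 windows of *Sbno2*, 2 held a match, and the one printed began 24 bases before a start that is also inside the gene. A match is a description of letters, and binding of a STAT protein was not measured.

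The other genes of the pathway were counted from lists that were chosen with earlier results of these data known. Of 95 listed genes, 91 had a row. Of these, 28 passed the adjusted p of 0.05 as higher in d6PGCLCs, 14 passed as lower and 49 did not pass. Over all genes tested, 16.1% were higher and 15.4% lower, and among genes averaging 10 or more counts 28.1% and 25.6%, and nothing particular to the pathway is read from these counts. The median log2 fold change of the 69 averaging 10 or more counts was 0.21, and that of all such genes was 0.01. Without d6PGCLC replicate 4, 19 were higher, and without E12.5 PGC replicate 3, 20 were.

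Genes of the ligands themselves were among those that rose. Of 10 IL6 family ligands, 4 rose by edgeR's test and the other 6 did not pass. *Lif* was at 1.12, 3.58, 2.03 and 2.08 CPM in E12.5 PGCs and at 14.8, 16.0, 24.7 and 23.2 CPM in d6PGCLCs, a log2 fold change of 3.14 (SE 0.27, adjusted p = 4.49e-09). *Osm*, which encodes the IL6 family ligand oncostatin M, rose from 1.08 to 2.84 CPM to 4.73 to 11.6 CPM. Its log2 fold change was 2.25 (SE 0.34, adjusted p = 1.47e-05, edgeR's test). *Ctf1*, which encodes the LIFR ligand cardiotrophin 1, had a log2 fold change of 0.98 and was the most abundant of the 4 in CPM. *Ebi3*, a subunit shared by IL27 and IL35, had one of 0.86 with overlapping groups, and missed the threshold when any of 4 libraries was left out (adjusted p up to 0.21). *Il6* and *Il27* had no counts in any library, and *Il11*, *Cntf* and *Clcf1* had means of under 10 counts. Within d6PGCLCs, *Lif* was lowest and *Socs3* highest in replicate 1, so that the libraries did not rank alike for the ligand and the inhibitor.

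Of 7 other receptor genes of the family, *Il6ra*, the IL6 binding chain, rose with a log2 fold change of 1.01, although E12.5 PGC replicate 1 overlapped the d6PGCLC range. *Lepr*, the leptin receptor, fell at a mean of 7.38 counts. *Osmr*, the oncostatin M receptor chain, had 2 counts in 1 library and 0 in the other 7. The interferon receptor genes went both ways: *Ifngr2* and *Ifnar2* rose with log2 fold changes of 2.42 and 4.13, whereas *Ifnar1* and *Ifngr1* fell, with -0.50 and -0.72. *Ifnar2* went from 0.369 to 0.631 CPM to 7.15 to 9.45 CPM. Of the interferon target genes in that list, *Gbp3* rose at a mean of 8 counts and *Irf1*, *Irf9*, *Ifit3* and *Gbp2* did not pass. *Il3ra*, a receptor chain that signals through STAT5, rose from 0.105 to 0.277 CPM to 1.93 to 4.40 CPM. *Csf2rb*, which pairs with it, had 2 counts in all 8 libraries together. *Prlr*, the prolactin receptor, also rose, at a mean of 8 counts, and the other 9 of 11 receptor genes in the STAT5 list did not pass. *Ifnar2* and *Il3ra* were singled out after their values were seen.

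Of 8 other JAK and STAT genes, 4 rose. *Stat6*, the factor of IL4 and IL13 signals, rose from 2.25 to 3.05 CPM to 19.3 to 25.2 CPM, a log2 fold change of 3.08 (SE 0.19, adjusted p = 4.71e-11). *Stat4*, the factor of IL12 signals, rose by 1.201 and *Stat2*, a factor of type I interferon signals, by 0.54 on the log2 scale. *Stat5a* rose at a mean of 8.25 counts, and *Stat5b*, *Jak3* and *Tyk2* did not pass. *Stat5a* and *Stat3* are neighbours whose annotated exons overlap on opposite strands. The library kit kept strand, but whether the counting used it is not given in the sources used here. *Jak1*, *Cish* and *Pim1* also overlap other genes on the opposite strand.

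Among the inhibitors, *Socs5* and *Socs6*, which act mostly on receptor tyrosine kinases, fell by 0.81 and 0.38 on the log2 scale. *Socs7* did not pass. *Socs6* missed the threshold when any of 4 libraries was left out (adjusted p up to 0.086). Of 9 phosphatases, PIAS proteins and adaptors that restrain JAK-STAT signals, *Ptpn2* and *Ptpn1* rose by 0.41 and 0.30, and *Cbl* and *Sh2b3* fell by 0.99 and 0.39. All 4 *Pias* genes had log2 fold changes between -0.12 and 0.01 and did not pass. *Ptpn1* lost its call in 10 of 17 alternatives and *Sh2b3* in 1. In the MAPK and PI3K arm of gp130, 3 of 14 genes rose and 3 fell. *Map2k1*, which encodes MEK1, rose by 1.07 and *Mapk3* (ERK1) by 0.67 on the log2 scale. *Sos1* and *Hras*, which act upstream of MEK, fell by 0.83 and 0.52.

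**Figure D4:**
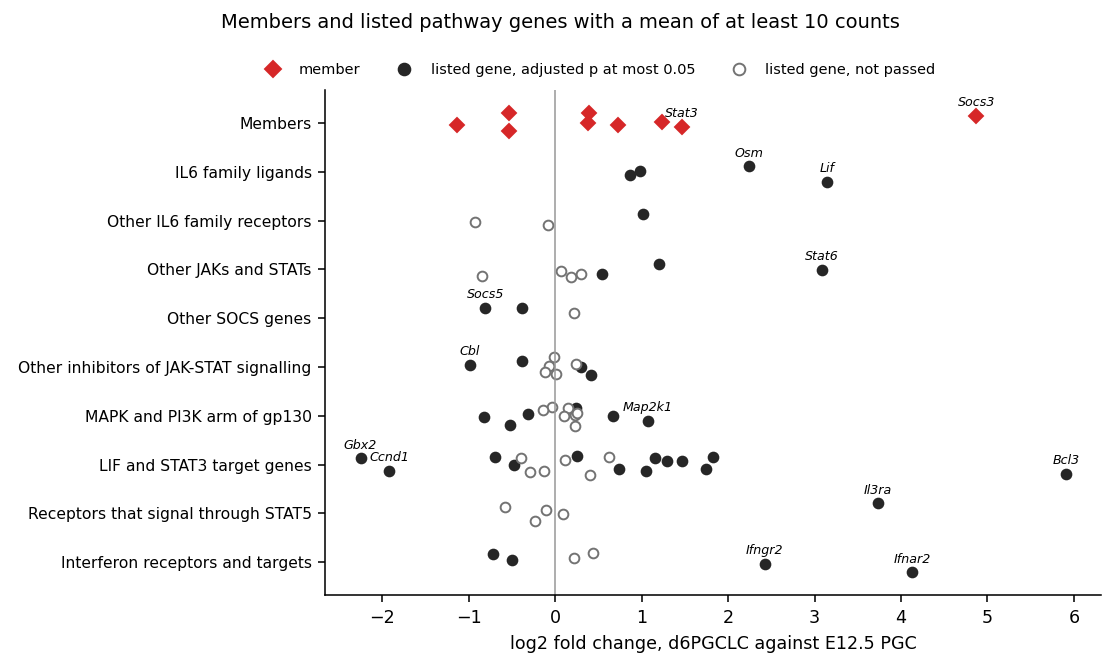
log2 fold change of d6PGCLC against E12.5 PGC (horizontal) for the members (red) and for the listed genes averaging 10 or more counts, by list (vertical). Filled circles passed the adjusted p of 0.05 and open circles did not. *Socs3* (4.87) and *Bcl3* (5.91) lie farthest to the right.

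Of 20 LIF and STAT3 target genes with a row, 9 rose, 4 fell and 7 did not pass, beside 28.1% higher and 25.6% lower among all genes averaging 10 or more counts. *Bcl3*, a nuclear cofactor of NF-kB, had 1, 3, 2 and 4 counts in E12.5 PGCs and 175, 184, 167 and 74 counts in d6PGCLCs. The summed counts gave a ratio of 62.3 (95% exact interval 33.7 to 130.7, counting error only), and the fitted log2 fold change was 5.91 (SE 0.53, adjusted p = 7.33e-11), or 5.14 with a prior count of 2. Within d6PGCLCs, *Bcl3* was highest in replicate 1 and lowest in replicate 4, as *Socs3* was. *Junb* (log2 fold change 1.83) and *Zfp36* (1.75), immediate early genes, and *Sbno2* (1.46), a corepressor gene, rose with no overlap between the groups. *Tfcp2l1* and *Klf5*, which encode pluripotency factors downstream of LIF, rose by 1.29 and 1.15, and *Pim3*, a relative of *Pim1*, by 1.05. *Junb*, *Zfp36* and *Fos* also belong to the dissociation genes that were high in E12.5 PGC replicate 2. Without that library, the log2 fold changes of *Junb* and *Zfp36* were 1.98 and 1.96.

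Other targets went down. *Gbx2*, a LIF target in pluripotent cells, was at 19.7 to 21.8 CPM in E12.5 PGCs and 3.56 to 5.73 CPM in d6PGCLCs, a log2 fold change of -2.25 (SE 0.18, adjusted p = 2.83e-09). *Ccnd1*, cyclin D1, fell by 1.92 on the log2 scale, but the d6PGCLC libraries ranged from 0.893 to 16.2 CPM, and with DESeq2 it did not pass (adjusted p = 0.057). Leaving out each library gave *Ccnd1* log2 fold changes of -2.74 (without d6PGCLC replicate 4) to -1.57 (without d6PGCLC replicate 2). *Fos* fell by 0.70 with overlapping groups, and its call was lost without E12.5 PGC replicate 2 and with DESeq2. *Klf4*, another pluripotency factor downstream of STAT3, was at 10.6 to 26.6 CPM and 12.8 to 16.98 CPM and did not pass (log2 fold change -0.29, adjusted p = 0.42). Target genes of LIF and STAT3 thus went in both directions while *Stat3* and *Socs3* were higher. *Bcl3*, *Tfcp2l1*, *Klf5*, *Pim3* and *Klf4* were singled out after their values were seen.

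**Figure D5:**
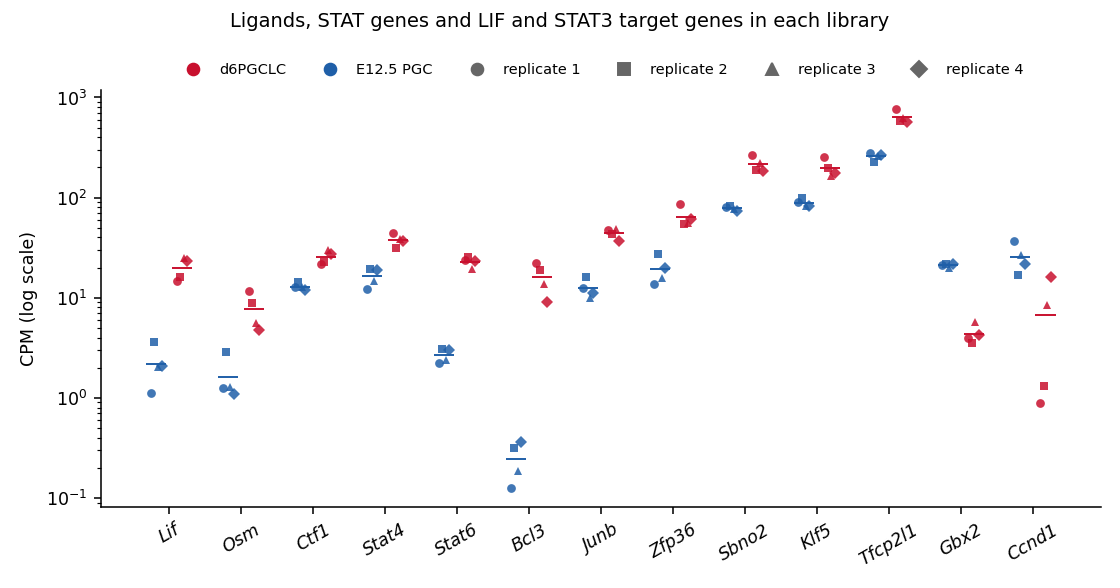
CPM (vertical, log scale) of ligand, STAT and target genes (horizontal) in each library, with marker shape for the replicate and a line at the group mean. *Bcl3* lies at 0.1248 to 0.361 CPM in E12.5 PGCs and 8.97 to 22.3 CPM in d6PGCLCs, whereas *Gbx2* and *Ccnd1* are lower in d6PGCLCs.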

How the data were processed

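Poly(A) RNA of d6PGCLCs and E12.5 PGCs, in 4 pools each, was sequenced as stranded libraries with single-end reads. The authors aligned with STAR to GRCm38 with ERCC sequences, chose 1 isoform at random per gene, and deposited unnormalized counts of uniquely mapped reads on its exons, with the exonic length in base pairs (unit: other). Reads shared by near-identical copies were thus not counted.

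Of 21950 Entrez identifiers, 21907 were given a symbol and GRCm38 coordinates from RefSeq. *Socs2* was not analysed here. Counts were fitted over all genes in R 4.3.3 with edgeR 4.0.16 (quasi-likelihood test after TMM, prior count 0.125) in a model of cell type alone, and p-values were adjusted by Benjamini-Hochberg. The study used a likelihood ratio test, which was an alternative here, next to DESeq2 1.42.0, other normalizations, filters on low counts, a prior count of 2, a loess offset on exonic length (span 0.5), a replicate block, and leaving out each library. Standard errors come from the information of the fit times the quasi-likelihood variance. The steps were tested on simulated data. Libraries of a group differed by more than sampling noise (3.19 to 20.8 for chi-square over degrees of freedom). Counted reads, 7991437 to 12024841 per library, set the counting precision.

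The members, the lists and the tests were chosen with earlier results of these data known. Named are all members, ligands averaging 10 or more counts, and per list up to 3 rising and 3 falling genes of largest change averaging 100 or more counts. *Bcl3*, *Tfcp2l1*, *Klf5*, *Pim3*, *Klf4*, *Ifnar2* and *Il3ra*, as well as genes under these minimums and genes that did not pass, were named after their values were seen. Promoter sequences are from RefSeq (GRCm38.p6), and 9 of 10 members matched. The results for some genes are not reported here.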

Additional observations from a re-analysis of the deposited data

Results flagged for a closer look

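Dixon's criterion was applied to 86 groups of 4 libraries, 43 genes in both cell types. In 5 groups, 1 library lay far from the other 3. Chance gives about 1 in 20 groups, or 4.3, so this number is near that of chance. The far library was d6PGCLC replicate 1 in 3 groups and E12.5 PGC replicate 2 in 2. *Stat3* was at 99.8 CPM in d6PGCLC replicate 1 and at 55.4 to 61.2 CPM in the others. In the same library *Sos1* was at 69.4 CPM against 46.5 to 49.0 CPM, and *Ptpn1* was low, at 45.1 against 53.8 to 55.2 CPM. E12.5 PGC replicate 2 had 2.84 CPM of *Osm* against 1.08 to 1.29 CPM, and 0.105 CPM of *Il3ra*, which is 1 count, against 0.250 to 0.277 CPM. The causes were not tested.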

How the results depend on the processing

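Each fold change was recomputed under 17 alternatives. No fold change of the 9 members or of the 34 other named genes reversed. The counts of genes over the whole table stayed within 1.5 times the main counts of 3532 higher and 3387 lower, from 3093 to 3708 higher and from 2885 to 3912 lower, as did those of the pathway genes, from 19 to 32 higher against 28 and from 12 to 17 lower against 14. Among the members, 8 passed the adjusted p of 0.05, all but *Lifr*, where 16.1% of all genes passed as higher and 15.4% as lower. The members were chosen on their fold changes in this comparison, so nothing is read from their calls or how stable these were. *Lifr* passed in 4 alternatives (the length offset, the replicate block, and without d6PGCLC replicate 3 or 4). *Socs1* was lost without d6PGCLC replicate 4 or without E12.5 PGC replicate 2, and no other member changed its call. *Pim1* moved by more than its replicate spread with the length offset (1.11). Leaving out each library gave *Socs3* 4.55 to 5.60, *Cish* 0.50 to 0.83, *Lifr* 0.18 to 0.50 and *Jak1* -0.69 to -0.40. Among the other named genes, *Socs6*, *Ptpn1*, *Sh2b3*, *Ccnd1*, *Fos* and *Ebi3* lost their call in at least 1 alternative, *Ccnd1* with DESeq2 (adjusted p = 0.057). Deviations from the group mean correlated at 0.25, 0.10, -0.01 and 0.03 between same-numbered libraries of the groups, in the order of replicates 1 to 4. Between differently numbered libraries they correlated at -0.165 to 0.101. The value for replicate 1 was thus the largest, and whether the replicate numbers pair the samples is not settled by these values. With the replicate block, 3708 genes were higher, 3562 were lower and 9 members passed. No scaling moved the median of all genes by over 0.1 on the log2 scale. Depth limits *Socs1* in both groups and *Socs3* and *Bcl3* in E12.5 PGCs, where they rest on few counts.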
